A study of Mus musculus with 2 samples.

Results

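The genes described here make, break down and read out the second messenger cAMP in the mouse heart: the adenylyl cyclases, the phosphodiesterases, the subunits of protein kinase A (PKA) and the A-kinase anchoring proteins (AKAPs). They were chosen by symbol, as every gene with a protein-coding transcript whose name starts with Adcy, Pde or Akap followed by a digit, or with Prkac or Prkar. This gave 58 of the 55536 genes in the table, namely 10 cyclases, 24 phosphodiesterase genes, 6 PKA subunits, 16 AKAPs and 2 genes whose symbols match but whose products are not cyclic nucleotide phosphodiesterases. Total RNA from the whole heart of 25-day-old female B6CASTF1/J mice, the first-generation hybrid of C57BL/6J and CAST/EiJ, was sequenced after reduction of ribosomal RNA, from 300 ng of RNA per library. There was a single group with 2 libraries, labelled biological replicates 1 and 2. They carry the same donor label and separate animal numbers, so they were taken as 2 animals. Each replicate is therefore a library of its own, no conditions were compared, and a ratio between the replicates describes these libraries only.

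In heart muscle, stimulatory G protein-coupled receptors such as the beta-adrenergic receptors activate adenylyl cyclases in the membrane, and the cAMP that is formed releases the catalytic subunits of PKA from its regulatory subunits. Phosphodiesterases hydrolyse cAMP, cGMP or both, and AKAPs tether PKA, often together with phosphodiesterases and phosphatases, next to its targets. In cardiac myocytes those targets include the L-type calcium channel, the ryanodine receptor, phospholamban and troponin I, through which cAMP raises the rate and force of contraction.

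The libraries held 43190646 and 42954475 expected counts in replicates 1 and 2, and the 58 genes took 202863 and 201353 of them. Levels are given in TPM, the share of a library's transcripts that belongs to a gene, which is scaled by length and can be compared between genes. A gene counted as detected at 1 TPM or more in both replicates. All 8 cardiomyocyte markers were detected, and their summed level was 33048 TPM for replicate 1 and 34039 TPM for replicate 2. Markers of other cell types were also present, with sums of 556 and 447 TPM for 8 fibroblast genes, 322 and 273 TPM for 8 endothelial genes, 350 and 270 TPM for 8 smooth muscle and pericyte genes, and 132 and 102 TPM for 8 macrophage genes in replicates 1 and 2. In such tissue RNA, fewer cells of a type and less RNA per cell cannot be told apart.

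Of the 58 genes, 40 were detected (69.0%), against 49.9% of all 22028 protein-coding genes. The median level of the 58 genes was 4.27 ± 0.566 TPM (SD, n = 2), and that of all protein-coding genes was 1.12 ± 0.0849 TPM. The detected genes were 6 of the 10 cyclases, 16 of the 24 phosphodiesterase genes, 5 of the 6 PKA subunits, 11 of the 16 AKAPs and both other genes. Pde4c (1.44 and 0.86 TPM) and Akap5 (0.80 and 1.16 TPM) reached 1 TPM in a single replicate each.

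**Figure D1:**
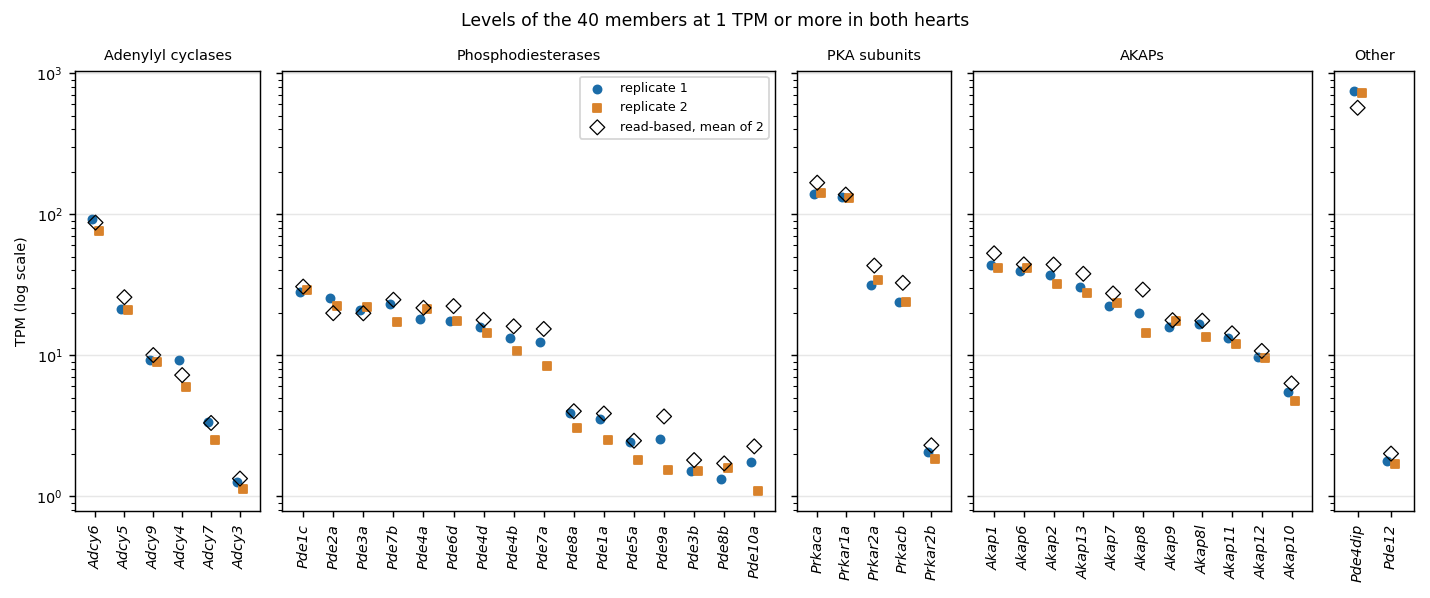
Level of each of the 40 detected genes in TPM (log scale), with replicate 1 as circles, replicate 2 as squares and the mean of the read-based quantification of the same libraries as open diamonds. Pde4dip stands at 750.27 and 719.63 TPM, Prkaca and Prkar1a lie between 129.60 and 140.78 TPM, and Adcy6 is the highest cyclase at 91.75 and 75.95 TPM.

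The authors quantified every library in 2 ways, from alignments and directly from reads. The alignment-based gene table is used unless the read-based values are named. Both quantifications spread a gene's reads over its annotated transcripts, and short transcripts with few reads can then carry a high TPM. For this reason the level over complete coding transcripts alone, meaning transcripts annotated as protein-coding with no missing end, is given as well for the 14 of 40 detected genes where it was more than 1.5 times lower, and for some others.

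The adenylyl cyclases were led by Adcy6 (mm10 chr15:98589973-98610076, minus strand), one of the calcium-inhibited cyclases of cardiac myocytes, with 91.75 and 75.95 TPM in replicates 1 and 2. Adcy5, the other calcium-inhibited cyclase, had 21.28 and 20.72 TPM. The replicates of these genes did not overlap, and Adcy6 made up 66.1 ± 0.984% (SD, n = 2) of the summed TPM of the 9 membrane cyclases.

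The lead of Adcy6 over Adcy5 depended on which transcripts were counted. The ratio of their TPM was 3.99 ± 0.457 over all transcripts, 3.39 ± 0.492 in the read-based quantification and 1.85 ± 0.0904 over complete coding transcripts. A 612-base incomplete transcript, Adcy6-204, held 24.7% and 21.1% of the Adcy6 level in replicates 1 and 2, and a retained-intron transcript, Adcy6-202, held 23.8% and 22.8%. In the read-based values Adcy6-204 was at 0 and the full-length coding transcript Adcy6-201 held 47.8% and 52.1%. Incomplete coding transcripts as a class still held 24.1% and 23.3% of Adcy6 in the read-based values. Complete coding transcripts held 38.8 ± 2.82 TPM of Adcy6. Adcy6 was the higher of the pair in both replicates under all of these measures.

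Adcy9, a widely expressed cyclase that is little affected by forskolin, had 9.27 and 8.87 TPM in replicates 1 and 2. Adcy4, a cyclase stimulated by G protein beta-gamma subunits, had 9.17 and 5.91 TPM, so its range overlapped that of Adcy9 and the order of the pair was not resolved. Adcy7, the cyclase known from blood and immune cells, had 3.37 and 2.48 TPM. Adcy3, best known from olfactory neurons, had 1.25 and 1.13 TPM. The calcium-stimulated cyclases of the brain, Adcy1 and Adcy8, stayed below 1 TPM in both replicates, with up to 0.83 and 0.24 TPM. Adcy2 reached at most 0.18 TPM, and Adcy10, the bicarbonate-stimulated soluble cyclase, had 2 and 4 counts.

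The PKA subunits Prkaca and Prkar1a were the highest of the 58 genes after Pde4dip. The catalytic subunit Prkaca (chr8:83972993-83996443, plus strand) had 138.43 and 140.78 TPM in replicates 1 and 2, and the second catalytic subunit, Prkacb, had 23.82 and 23.87 TPM. Prkaca thus made up 85.4 ± 0.130% of the catalytic subunit TPM. Nearly all of Prkaca came from 1 transcript, Prkaca-201, with 99.0% and 99.8% of the gene, whereas Prkacb-202 held 60.9% and 63.2% of Prkacb. The read-based values were lower, with 91.6% and 89.9% for Prkaca-201 and 51.0% and 46.2% for Prkacb-202.

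Among the regulatory subunits, the type I subunit Prkar1a had 131.16 and 129.60 TPM. Prkar2a, a type II subunit, the type that most AKAPs bind, had 31.46 and 34.35 TPM. Prkar2b, the type II subunit prominent in fat and brain, had 2.05 and 1.83 TPM, and Prkar1b, the type I subunit of neurons, had 0.66 and 0.91 TPM. Prkar1a made up 78.5 ± 1.12% of the regulatory subunit TPM, and the 4 levels did not overlap between subunits.

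Summed over subunits, regulatory and catalytic transcripts were present in nearly equal amounts. The regulatory sum was 165.33 and 166.69 TPM and the catalytic sum was 162.25 and 164.65 TPM in replicates 1 and 2, a ratio of 1.02 ± 0.00466. The ratio was 0.925 ± 0.00910 in the read-based values and 1.03 ± 0.0144 over complete coding transcripts, so which side was larger depended on the quantification.

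Prkar1a (chr11:109649405-109669656, plus strand) was assigned to different start sites by the quantifications. The transcripts Prkar1a-201 and Prkar1a-203 start 1516 bases apart and carry the same coding segments of 1143 bases. The alignment-based values gave 80.0% and 79.2% of the gene to Prkar1a-201 and 15.7% and 16.7% to Prkar1a-203 in replicates 1 and 2. The read-based values gave 30.0% and 31.3% to Prkar1a-201 and 68.2% and 67.9% to Prkar1a-203. Within each quantification the replicates lay close together, and the leading transcript differed between the quantifications in both replicates.

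The RNA of a single protein is assigned to one or the other of these alternative starts. The 250 bases before the RefSeq start nearest each of them are therefore shown. They are RefSeq sequences of the build GRCm38.p6 in 5′ to 3′ direction, at chr11:109650699-109650948 for Prkar1a-201 and at chr11:109649113-109649362 for Prkar1a-203, both on the plus strand. Capitals mark matches on either strand to the cAMP response element TGACGTCA, its first part TGACG, the GC box GGGCGG, the CCAAT box CCAAT and the TATA box TATAAA.
Prkar1a-201: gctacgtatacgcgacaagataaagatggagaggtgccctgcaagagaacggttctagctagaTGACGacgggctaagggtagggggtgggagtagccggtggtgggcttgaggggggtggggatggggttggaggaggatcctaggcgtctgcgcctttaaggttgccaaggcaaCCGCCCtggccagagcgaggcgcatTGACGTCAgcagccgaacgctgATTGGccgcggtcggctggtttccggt
Prkar1a-203: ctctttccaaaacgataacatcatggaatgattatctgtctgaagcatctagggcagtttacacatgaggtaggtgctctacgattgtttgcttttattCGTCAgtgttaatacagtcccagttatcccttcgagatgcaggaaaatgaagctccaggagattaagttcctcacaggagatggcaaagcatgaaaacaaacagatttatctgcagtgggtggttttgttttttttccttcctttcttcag

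The window before Prkar1a-201 held 1 full cAMP response element, which is the sequence that CREB binds, 49 bases before the RefSeq start. It also held 3 matches to TGACG, of which 2 lie inside that palindromic element on opposite strands, 1 GC box and 1 CCAAT box. The window before Prkar1a-203 held 1 match to TGACG and none to the other motifs. The GC content was 61.6% before Prkar1a-201 and 40.4% before Prkar1a-203. The RefSeq starts lay 28 bases after and 42 bases before the GENCODE starts of these transcripts. The end of the first window, with its CCAAT box, thus lies inside Prkar1a-201 as quantified. The second window stops short of the start of Prkar1a-203.

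Among the 58 genes, 47 had an entry in the promoter table, with 90 windows in all. Prkar1a alone held TGACGTCA, in 1 of 90 windows (1.11%), against 1.55% of all 32851 windows of that length. TGACG was found in 15.6% of the 90 windows and in 17.8% of all windows. GGGCGG was found in 42.2% of the 90 windows and in 32.7% of all, CCAAT in 33.3% of the 90 and 33.8% of all, and TATAAA in 3.33% of the 90 and 12.4% of all. A match describes these letters only and shows no binding.

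Among the catalytic phosphodiesterases Pde1c was the highest in both replicates, with several others at similar levels. Pde1c (chr6:56069804-56569103, minus strand), which is activated by calcium and calmodulin and hydrolyses cAMP and cGMP, had 27.79 and 29.00 TPM in replicates 1 and 2. Pde2a, which cGMP stimulates, had 25.36 and 22.22 TPM. Pde3a, which cGMP inhibits and which is the target of milrinone, had 20.88 and 21.92 TPM. The ranges of the replicate values of these 3 genes did not overlap each other. That of Pde7b (22.97 and 17.29 TPM) overlapped those of Pde2a and Pde3a, and that of Pde4a (18.14 and 21.23 TPM) overlapped that of Pde3a. The deposited credibility intervals, which carry the uncertainty of assigning reads, overlapped for Pde2a and Pde3a in both replicates. In replicate 1 they also overlapped for Pde1c (26.2 to 29.4 TPM) and Pde2a (20.4 to 27.4 TPM). Pde1c took 17.0 ± 1.67% of the TPM of the catalytic phosphodiesterases, Pde2a 14.2 ± 0.362% and Pde3a 12.8 ± 1.31%.

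The order below Pde1c changed with the quantification and the transcripts counted. The read-based means were 30.6 TPM for Pde1c, 24.7 TPM for Pde7b, 21.6 TPM for Pde4a, 19.8 TPM for Pde2a and 19.8 TPM for Pde3a. Over complete coding transcripts Pde2a was at 5.29 ± 0.120 TPM, below Pde1c at 22.9 ± 0.594 TPM, Pde7b at 19.8 ± 3.84 TPM, Pde4a at 19.3 ± 2.21 TPM and Pde3a at 14.3 ± 0.438 TPM. The alignment-based values gave 62.4% and 57.2% of Pde2a to Pde2a-209, a transcript annotated for nonsense-mediated decay, and 16.3% and 13.3% to the coding transcript Pde2a-204. The read-based values gave 57.6% and 43.3% to Pde2a-204, and only 0.678% in replicate 1 but 28.8% in replicate 2 to Pde2a-209. Pde2a-209 and Pde2a-204 are 4105 and 4100 bases long. Pde2a overlaps the coding gene Gm45837, and its read-based counts were 1779 and 2322 in replicates 1 and 2, against 2947 and 2587 expected counts. The cause of the difference between the quantifications was not tested. Pde3a was split between its coding transcript Pde3a-201, at 67.1% and 66.8%, and a retained-intron transcript.

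Of the cAMP-specific families, PDE4 was the largest by level. Its 4 genes summed to 47.9 ± 1.00 TPM. Pde4a had 18.14 and 21.23 TPM in replicates 1 and 2, Pde4d, which binds the ryanodine receptor and beta-adrenergic receptor complexes, had 15.86 and 14.36 TPM, and Pde4b had 13.17 and 10.74 TPM. The ranges of Pde4a, Pde4d and Pde4b were separate in that order, and Pde4c stayed near 1 TPM. In replicate 1 the credibility intervals of Pde4a (17.1 to 18.6 TPM) and Pde4d (15.2 to 17.3 TPM) overlapped. Over complete coding transcripts the ranges of Pde4d (11.37 and 11.31 TPM) and Pde4b (12.48 and 10.37 TPM) overlapped, so their order was not resolved.

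PDE4 genes make long and short forms from separate starts, and Pde4a, Pde4b and Pde4d each showed several coding transcripts. Pde4a-202 held 55.1% and 53.2% of Pde4a in replicates 1 and 2, and Pde4a-203 held 41.8% and 44.7%. The read-based values were close, with 57.5% and 55.3% for Pde4a-202 and 37.5% and 43.3% for Pde4a-203. Pde4d-207 led Pde4d with 45.3% and 51.9%, ahead of the longer coding transcript Pde4d-209 with 20.3% and 21.9%. Pde4b-207 led Pde4b with 60.8% and 67.7%, ahead of Pde4b-203 with 23.3% and 16.4%. These leading transcripts were the same in both replicates and both quantifications.

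The 250 bases before the 2 main starts of Pde4a are shown because these starts share the gene's level and, unlike those of Prkar1a, give different proteins, with coding segments of 2532 and 2361 bases from starts 18389 bases apart. The RefSeq windows lie on the plus strand at chr9:21165464-21165713 for Pde4a-202 and chr9:21183851-21184100 for Pde4a-203, with capitals for the same motifs.
Pde4a-202: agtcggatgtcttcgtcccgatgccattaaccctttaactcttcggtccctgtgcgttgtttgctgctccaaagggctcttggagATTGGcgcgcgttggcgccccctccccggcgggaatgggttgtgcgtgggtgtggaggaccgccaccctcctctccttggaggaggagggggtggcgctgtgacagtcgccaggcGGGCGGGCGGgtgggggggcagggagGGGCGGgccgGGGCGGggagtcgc
Pde4a-203: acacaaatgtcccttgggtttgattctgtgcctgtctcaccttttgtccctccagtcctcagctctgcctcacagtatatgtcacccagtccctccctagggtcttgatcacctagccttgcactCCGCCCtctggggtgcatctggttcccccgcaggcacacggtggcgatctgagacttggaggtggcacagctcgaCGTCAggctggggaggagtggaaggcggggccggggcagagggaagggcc

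The window before Pde4a-202 held 4 matches to the GC box, of which 2 overlap, and 1 CCAAT box, with a GC content of 68.8%. The window before Pde4a-203 held 1 GC box and 1 match to TGACG, with a GC content of 61.2%. Neither held the full cAMP response element.

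The PDE7 and PDE8 families, which also act on cAMP alone, were led by Pde7b with 22.97 and 17.29 TPM in replicates 1 and 2. Its range enclosed that of Pde4a. Pde7a had 12.38 and 8.38 TPM, Pde8a had 3.90 and 3.02 TPM and Pde8b had 1.32 and 1.57 TPM. Pde7a was spread thinly over its transcripts, with 18.8% and 18.4% in the coding Pde7a-201 and 17.2% and 16.9% in the retained-intron transcript Pde7a-206, which led the read-based values with 23.2% and 21.4%. Complete coding transcripts held 5.30 ± 1.46 TPM of Pde7a and 0.670 ± 0.0283 TPM of Pde8b.

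The remaining enzymes were low. Pde5a, the cGMP-specific target of sildenafil, had 2.40 and 1.79 TPM in replicates 1 and 2, and Pde9a, the other cGMP-specific enzyme, had 2.56 and 1.53 TPM. These levels rested on 91 and 82 counts for Pde9a, its read-based mean was 1.80 times as high, and complete coding transcripts held 0.595 ± 0.587 TPM. Pde1a had 3.53 and 2.49 TPM, Pde3b 1.51 ± 0.00707 TPM (mean and SD), and Pde10a 1.74 and 1.08 TPM. Over complete coding transcripts Pde1a stood at 1.58 ± 0.255 TPM and Pde10a at 0.400 ± 0.184 TPM, and the read-based mean of Pde10a was 1.60 times as high as the alignment-based mean. Pde3a exceeded Pde3b, the other cGMP-inhibited enzyme, by 14.2 ± 0.555 times in TPM, and by 9.75 ± 0.204 times over complete coding transcripts.

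Grouped by substrate, the 8 genes for cAMP-specific enzymes summed to 89.18 and 77.45 TPM in replicates 1 and 2, the 8 genes for enzymes acting on both nucleotides to 81.36 and 78.64 TPM, and Pde5a and Pde9a, the cGMP-specific enzymes outside the photoreceptor PDE6 family, to 4.96 and 3.32 TPM. The ranges of the cAMP-specific and the dual group overlapped in these values. In the other measures they were apart, with read-based sums of 108.4 and 96.7 TPM against 77.0 and 80.5 TPM, and sums over complete coding transcripts of 76.1 and 68.4 TPM against 46.9 and 45.8 TPM. For Pde5a and Pde9a the means were 6.14 and 2.00 TPM by these measures. Their sum was the lowest of the 3 under each measure.

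The PDE6 genes encode the phosphodiesterase of rods and cones. Among them, only Pde6d was detected, at 17.54 and 17.35 TPM, and its product is a carrier of prenylated proteins and not a catalytic subunit. In the alignment-based table Pde6b and Pde6h had 0 counts in both replicates, and Pde6a, Pde6c and Pde6g had at most 7 counts in a replicate. A count of 0 allows up to 3 counts per library, which is 0.0695 and 0.0698 CPM (counts scaled like TPM but not by length) in replicates 1 and 2. The 8 photoreceptor markers summed to 0.43 and 0.18 TPM, with Arr3 and Crx at 0. The read-based values differed for several of these genes. Pde6a had a mean of 1.04 TPM, nearly all in an incomplete transcript, against 0.035 TPM in the alignment-based table. Pde6h was given 10.6 and 7.26 read-based counts and Pde6g 16.1 and 5.09 in replicates 1 and 2, whereas Pde6b stayed at 0.

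The highest member by far was Pde4dip (chr3:97689824-97888707, minus strand), which encodes myomegalin, a large scaffold protein of the Golgi, centrosome and sarcomere that binds Pde4d and has no phosphodiesterase activity of its own. It had 750.27 and 719.63 TPM in replicates 1 and 2, which is 45.0% and 45.4% of the summed TPM of the 58 genes. The expected counts were 82450 and 82028. The read-based mean was 568 TPM, and over complete coding transcripts the level was 257 ± 5.61 TPM.

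Short transcripts carried much of the Pde4dip level. The 414-base transcript Pde4dip-208, which is not annotated as coding, led the alignment-based values with 23.2% and 23.1% in replicates 1 and 2. The 8376-base coding transcript Pde4dip-202 held 21.9% and 21.3%, and led the read-based values with 38.8% and 35.3%. Pde4dip was the highest of the 58 genes under all 3 measures. The other gene outside the enzyme families, Pde12, a mitochondrial enzyme that shortens poly(A) tails, had 1.78 and 1.68 TPM from its single transcript.

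**Figure D2:**
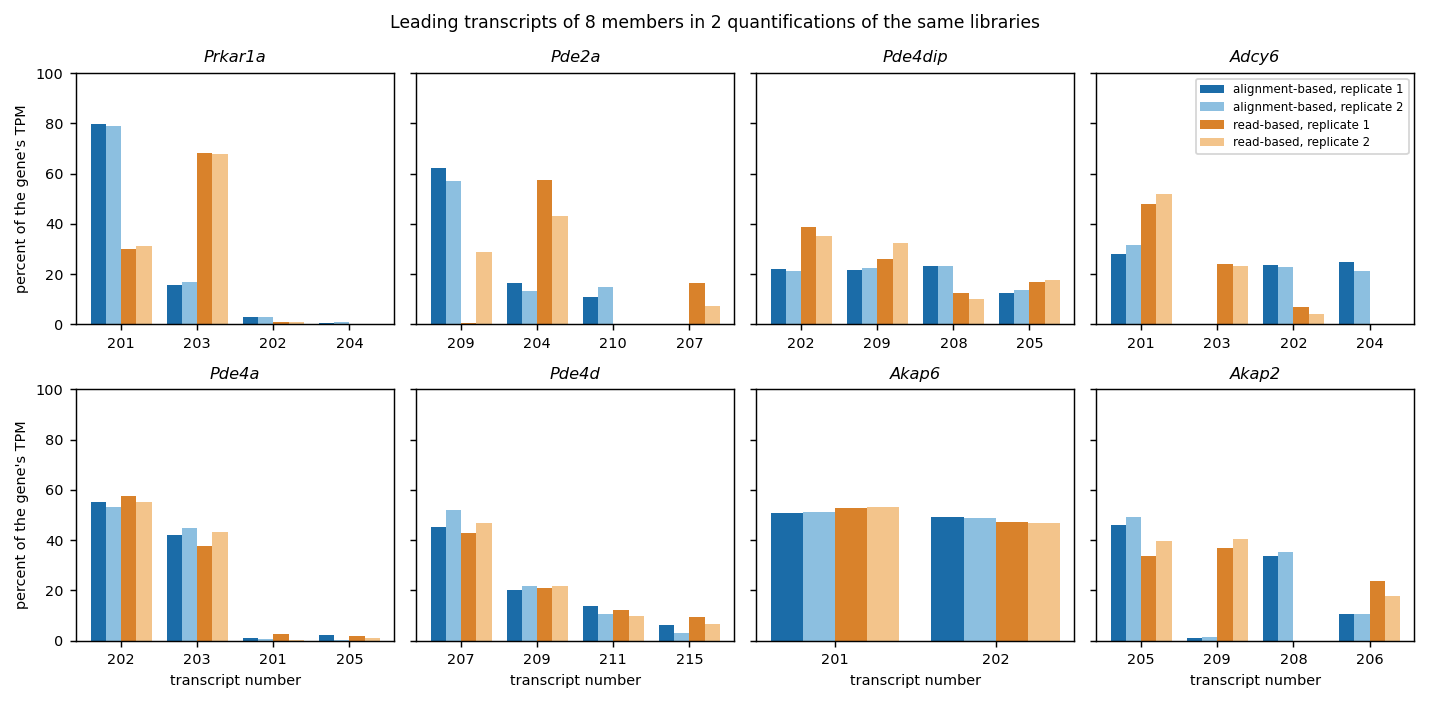
Percentage of the gene's TPM held by the leading transcripts of 8 genes (up to 4 each; numbers on the horizontal axis are transcript names), with bars for the alignment-based and read-based values of replicates 1 and 2. Pde4a, Pde4d and Akap6 look alike in all 4 bars, whereas Prkar1a-201 falls between 79.2% and 80.0% in the alignment-based values and between 30.0% and 31.3% in the read-based values.

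The anchoring proteins were more evenly spread than the cyclases. The 16 AKAP genes summed to 247 ± 11.9 TPM, and no gene held more than the 17.2 ± 0.166% of Akap1. Akap1 (chr11:88830792-88864586, minus strand), which anchors PKA to the outer mitochondrial membrane, had 43.71 and 41.39 TPM in replicates 1 and 2. Akap6 (chr12:52699383-53155599, plus strand), which anchors PKA and Pde4d at the nuclear envelope of myocytes, had 39.68 and 41.21 TPM. Akap2 had 36.96 and 31.90 TPM. The ranges of Akap1 and Akap6 lay next to each other, with the lowest value of Akap1 (41.39 TPM) just above the highest of Akap6 (41.21 TPM). Over complete coding transcripts the ranges overlapped, with 40.65 and 40.37 TPM for Akap1 and 39.68 and 41.21 TPM for Akap6, so their order was not resolved.

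Akap2 was counted with a limit. Its annotation overlaps the coding gene Pakap on chromosome 4, its expected counts of 5716.95 and 4952.06 are not whole, and part of its reads was thus shared with other genes. Over complete coding transcripts it stood at 22.2 ± 2.73 TPM. Akap2-205 led the alignment-based values with 45.9% and 49.1% in replicates 1 and 2, and the 671-base incomplete Akap2-209 led the read-based values with 36.8% and 40.6%. Akap11 and Prkar1b also had counts that were not whole, and 9 of the 58 genes overlap another coding gene.

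Akap13, an anchoring protein that also activates RhoA, had 30.59 and 27.35 TPM in replicates 1 and 2, mainly from the 12597-base Akap13-205, and 15.8 ± 0.742 TPM over complete coding transcripts. Akap7, whose short form anchors PKA at the L-type calcium channel and whose long form anchors it at phospholamban, had 22.38 and 23.49 TPM. The leading transcripts of Akap7 were short and incomplete in both quantifications, namely the 557-base Akap7-208 and, in the read-based values, the 720-base Akap7-206. Complete coding transcripts of Akap7 held 7.40 ± 1.70 TPM.

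The nuclear anchoring protein Akap8 had 19.82 and 14.34 TPM in replicates 1 and 2, of which complete coding transcripts held 2.50 ± 0.700 TPM, and its read-based mean was 1.71 times as high. The 467-base incomplete Akap8-203 led it in both replicates and both quantifications. Akap9, which anchors PKA at the centrosome, the Golgi and the KCNQ1 potassium channel, had 15.92 and 17.48 TPM. Akap8l had 16.56 and 13.34 TPM, Akap11 13.25 and 12.05 TPM, Akap12 9.74 and 9.47 TPM and Akap10 5.43 and 4.71 TPM. Complete coding transcripts held 7.55 ± 0.205 TPM of Akap9 and 7.02 ± 0.396 TPM of Akap8l.

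Akap6 was split almost evenly between its transcripts. Akap6-201, with a coding length of 6921 bases, held 50.7% and 51.3% in replicates 1 and 2, and Akap6-202, with 3672 bases, held 49.3% and 48.7%. The read-based values were 52.8% and 53.0% for Akap6-201. Both transcripts are complete and coding, and start at separate places.

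The AKAPs below 1 TPM included those of sperm. Akap3 and Akap14 had 0 counts in both replicates, Akap4, the main anchoring protein of the sperm flagellum, had 2 and 0 counts, and 7 of 8 sperm and testis markers were at 0. Akap17b reached 0.78 and 0.90 TPM. In all, 16 of the 58 genes were below 1 TPM in both replicates, 4 of them without a count in the alignment-based table: Akap3, Akap14, Pde6b and Pde6h.

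The leading transcript, meaning the one with the highest percentage of its gene, was compared over the 39 detected genes with several transcripts. It was the same in both replicates for 34 (87.2%) in the alignment-based values, against 89.5% of 10069 protein-coding genes detected with several transcripts. It was the same for 35 (89.7%) in the read-based values, against 86.4%. The 5 genes that switched in the alignment-based values were Adcy3, Adcy7, Akap8l, Pde9a and Pde10a. Adcy7-201 held 50.8% and 0% in replicates 1 and 2 and Adcy7-202 held 0% and 76.2%, and both are 5937 bases long.

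Between the quantifications, the leading transcript was the same in both replicates for 25 of the 39 genes (64.1%), against 68.4% of protein-coding genes. It differed in both replicates for 10 genes, namely Prkar1a, Pde2a, Pde4dip, Pde7a, Pde8b, Pde9a, Pde10a, Adcy9, Akap2 and Akap7. It differed in 1 replicate for Adcy7, Akap8l, Pde5a and Prkar2b. Each of these shares lay near that of all protein-coding genes.

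Transcripts not annotated as coding led 3 of the 39 genes (7.69%) in both replicates, against 5.67% of protein-coding genes. These were Pde2a, Pde4dip and Pde1a, where the 869-base Pde1a-209 held 44.5% and 43.8%. Coding but incomplete transcripts led Akap7 and Akap8 (5.13%), against 2.48% of protein-coding genes. Over the 40 detected genes, complete coding transcripts held a median of 81.4% of the level, from 15.4% in Akap8 to 100% in Adcy9, Prkaca, Pde12, Akap6 and Prkar2b, and more than 50% in 30 genes.

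**Figure D3:**
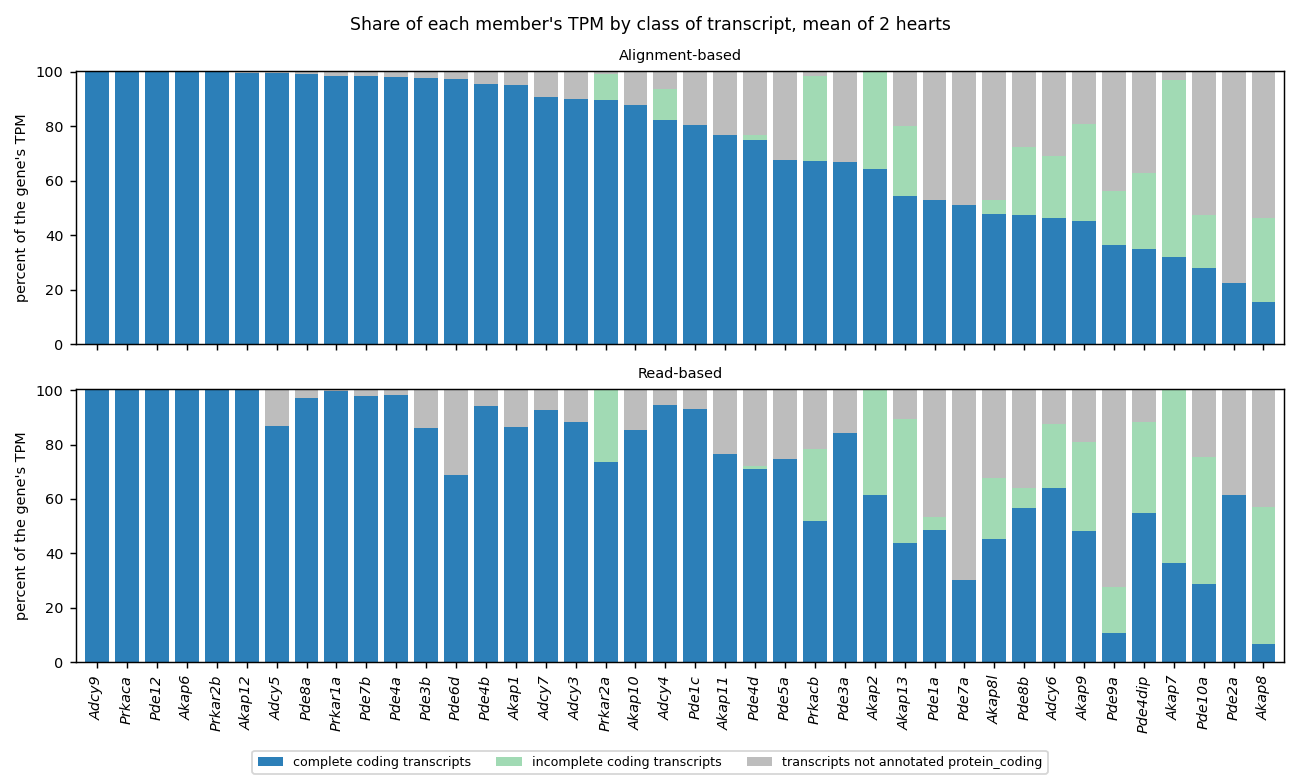
Percentage of each detected gene's TPM held by complete coding transcripts, by incomplete coding transcripts and by transcripts not annotated as protein-coding, as the mean of 2 replicates, in the alignment-based (top) and the read-based (bottom) values. Complete coding transcripts hold more than 50% in 30 of 40 genes in the alignment-based values and in 31 of 40 in the read-based values.

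The spread between the replicates was read from expected counts scaled by TMM, a normalization that aligns the bulk of genes. A gene counted as apart when the ratio passed 1.5-fold, where its counts averaged 10 or more. This held for 4 of 48 members (8.33%), against 9.65% of 15839 genes. Higher in replicate 1 were 3 of 48 members (6.25%), against 6.04% of all genes, and higher in replicate 2 was 1 (2.08%), against 3.62%. At a mean count of at least 100, a cut that was not planned, the 4 genes were 9.30% of 43 members, against 2.06% of 11238 genes. The median absolute log2 ratio was then 0.13 for members and 0.10 for all genes.

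Pde7a (chr3:19223108-19311322, minus strand) had 983 and 627 expected counts in replicates 1 and 2. The ratio of scaled counts, replicate 2 over replicate 1, was 0.659 with an exact 95% counting interval from 0.595 to 0.729. Pde10a, with 210 and 134 counts, had a ratio of 0.659 (0.527 to 0.822), and Pde4c, with 141 and 90 counts, also had 0.659 (0.50 to 0.865). These genes were lower in replicate 2, and their intervals, like that of Akap5, reach across the 1.5-fold line. Such intervals cover counting error only, and with 2 libraries of a single group no test of a difference was made.

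Akap5 (chr12:76324891-76334153, plus strand), which anchors PKA, calcineurin and the calcium-inhibited cyclases at the membrane, was the member higher in replicate 2. It had 127 and 215 counts in replicates 1 and 2, a ratio of 1.75 (1.40 to 2.19). The deposited credibility intervals on TPM, which also carry the uncertainty of assigning reads, were apart for Pde7a and overlapped for Pde10a, Pde4c and Akap5. Those of Akap5 ran from 0.633 to 0.976 TPM in replicate 1 and from 0.971 to 1.36 TPM in replicate 2.

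The credibility intervals were apart for 9 of the 48 members whose counts averaged 10 or more. In 8 of the 48 the TPM was higher in replicate 1, namely Adcy4, Adcy6, Adcy7, Akap8, Pde4b, Pde4dip, Pde7a and Pde7b. In 1 of the 48, Pde4a, it was higher in replicate 2. Over all 15839 genes the intervals were apart and higher in replicate 1 for 9.80%, and apart and higher in replicate 2 for 1.68%. Pde4a had 2319 and 2792 counts in replicates 1 and 2, a ratio of 1.24 (1.18 to 1.31). Adcy4 had 872 and 647 counts and a ratio of 0.766 (0.691 to 0.849), and Adcy7 had 609 and 454 counts and a ratio of 0.770 (0.680 to 0.871). For Pde4dip the TPM and the scaled counts pointed in opposite directions, with a count ratio of 1.03 (1.02 to 1.04).

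Marker genes of the heart's cell types also differed between the replicates, mostly by small amounts. None of the cardiomyocyte, fibroblast, endothelial, smooth muscle and pericyte or macrophage markers passed 1.5-fold. The share over all genes was 9.65%, and 2.06% at a mean count of at least 100, which most of these markers reached. The median log2 ratios of these lists ran from -0.319 (macrophage) to 0.114 (cardiomyocyte), beside 0.0089 over all genes. All 8 macrophage markers, 7 of 8 fibroblast markers, 6 of 8 endothelial markers and 6 of 8 smooth muscle and pericyte markers had higher scaled counts in replicate 1, and 7 of 8 cardiomyocyte markers had higher scaled counts in replicate 2. The 8 adipocyte markers summed to 26.5 and 29.1 TPM in replicates 1 and 2, and the 8 neuron markers to 3.64 and 2.55 TPM. Only 6 adipocyte and 2 neuron markers had enough counts for a ratio to be called. Past 1.5-fold and higher in replicate 2 were 3 of the 6 adipocyte markers, against 3.62% of all genes. These were Adipoq (46 and 67 counts), Retn (7 and 15) and Ucp1 (163 and 313), so Adipoq and Retn rested on few counts. Cidea, the highest adipocyte marker, was slightly higher in replicate 1, with 17.74 and 16.35 TPM. Past 1.5-fold and higher in replicate 1 was 1 of the 2 neuron markers, Syp (33 and 18 counts), against 6.04% of all genes. Among the members, 24 of 48 were higher in each replicate, with a median log2 ratio of -0.0023 against 0.0089 over all genes. The part of cell makeup in the differences of Adcy4, Adcy7, Pde7a and the other members was not tested.

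**Figure D4:**
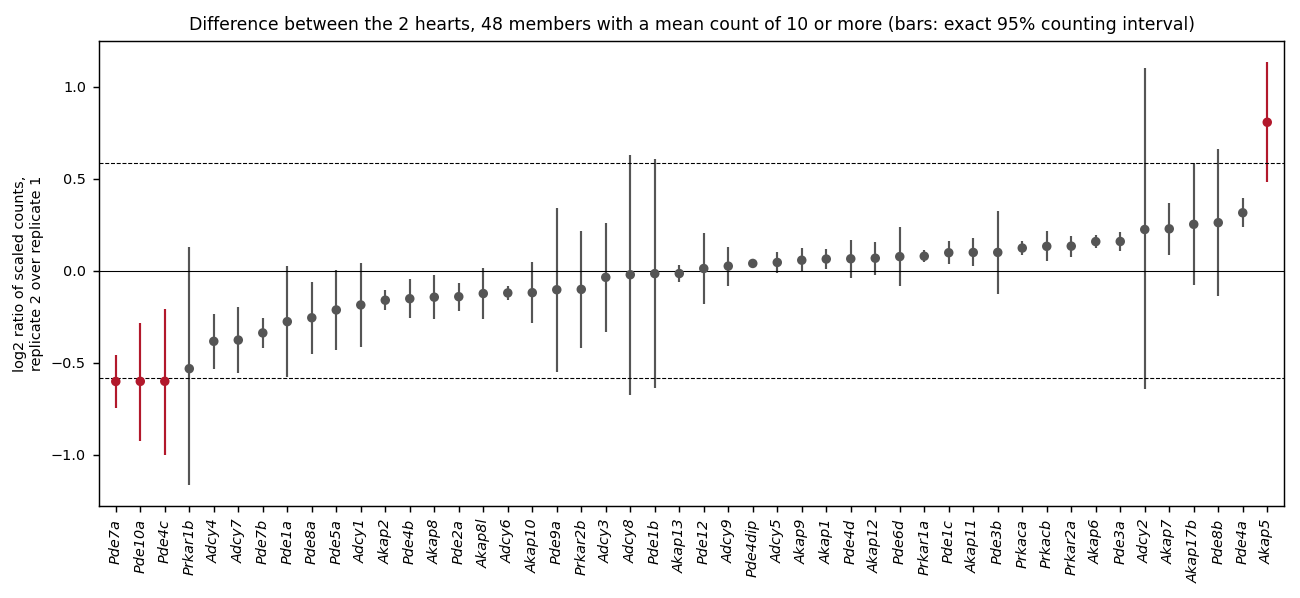
Log2 ratio of TMM-scaled expected counts, replicate 2 over replicate 1, for the 48 members whose counts averaged 10 or more, ordered by ratio. Bars are exact 95% counting intervals, dashed lines mark 1.5-fold, and the 4 genes past it are drawn in red: Pde7a, Pde10a and Pde4c below, Akap5 above.

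The pathway around these genes was described from 8 lists with 95 genes, of which 78 were detected, beside the 49.9% of all protein-coding genes. Among the 85 whose counts averaged 10 or more, a single gene passed 1.5-fold between the replicates, beside the 9.65% of all genes. This was the PKA inhibitor gene Pkib, with 10 and 15 counts, near the count minimum. Most of the 85 genes had a mean count of at least 100, where the share over all genes was 2.06%.

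Upstream, 15 of 22 G protein subunit genes were detected. Gnas, which encodes the stimulatory alpha subunit, led with 466.57 and 460.55 TPM in replicates 1 and 2, ahead of the inhibitory alpha subunit Gnai2 with 98.96 and 90.54 TPM and the beta subunit Gnb2 with 94.22 and 90.21 TPM. Gnas also led the read-based values, at a mean of 664 TPM. Gnas thus stood above the sum of all 9 membrane cyclases, which was 137.33 and 116.10 TPM.

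Genes for endogenous inhibitors of the PKA catalytic subunit were well detected. Pkig had 90.54 and 89.67 TPM and Pkia had 77.08 and 80.45 TPM in replicates 1 and 2. Together with Pkib the list summed to 167.83 and 170.47 TPM, beside 162.25 and 164.65 TPM of catalytic subunits. The sums were further apart in the read-based values, with 247 and 258 TPM for the inhibitors and 194 and 205 TPM for the catalytic subunits, and Pkig alone had a mean of 176 TPM.

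The other receptors of cAMP were all detected. Popdc2, a Popeye protein of the muscle membrane, had 185.17 and 194.76 TPM, and Bves, which encodes Popdc1, had 16.85 and 16.18 TPM in replicates 1 and 2, with a read-based mean of 32.5 TPM. The third Popeye gene, Popdc3, had 9.74 and 8.16 TPM. The cAMP-activated exchange factors Rapgef3 and Rapgef4 had means of 8.46 ± 2.45 and 8.65 ± 0.339 TPM, which did not separate them.

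Of the genes for cGMP synthesis and cGMP kinases 6 of 12 were detected, near the 49.9% of all protein-coding genes. The natriuretic peptide receptor cyclase Npr2 had 16.30 and 13.44 TPM, the soluble cyclase subunit Gucy1a1 had 7.41 and 6.81 TPM, and Npr1 had 7.25 and 6.63 TPM in replicates 1 and 2. The list summed to 48.05 and 41.28 TPM.

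Downstream, all 15 genes listed with the cardiac PKA substrates were detected. Atp2a2 led the list with 4696.55 and 4650.34 TPM in replicates 1 and 2. It encodes the calcium pump that phospholamban controls, and is not itself taken as a PKA substrate. Troponin I (Tnni3) followed with 3968.86 and 4135.34 TPM and phospholamban (Pln) with 2393.53 and 2624.25 TPM. In the read-based values Tnni3 led, with means of 6270 TPM for Tnni3, 5044 TPM for Atp2a2 and 3421 TPM for Pln. All 9 cAMP-responsive transcription factors and coactivators were detected, with Atf1, Ep300 and Crebbp at 19.3 ± 0.941, 19.1 ± 1.25 and 15.1 ± 2.28 TPM. All 9 phosphatase genes were detected too, led by the protein phosphatase 1 subunits Ppp1cb, Ppp1ca and Ppp1cc at 182 ± 0.587, 129 ± 1.58 and 44.6 ± 6.36 TPM.

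Anchoring proteins that bear other symbols were detected for 17 of 20 genes. Cmya5, or myospryn, which anchors PKA at the costameres of striated muscle, had 116.54 and 119.21 TPM in replicates 1 and 2, above every gene with an Akap symbol. Moesin (Msn) and radixin (Rdx), which link membrane proteins to actin, followed with 48.1 ± 4.29 and 34.5 ± 1.58 TPM.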

How the data were processed

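Total RNA libraries of 2 mouse hearts were analysed. Both quantifications used mm10 and GENCODE M21, per the deposited listings, by tools not given in the sources used here. Per the file headers, the deposited counts are not normalized: expected counts come from alignments and estimated counts from reads. TPM were computed by the authors over all entries, per the file headers. The percent column, deposited with the alignment-based transcripts, gives each transcript's share of its gene. The score columns, deposited with TPM, bound a credibility interval of unstated level.

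Read-based transcripts were summed to genes. Counts were scaled with TMM (edgeR 4.0.16, R 4.3.3), or with DESeq2 1.42.0 size factors as an alternative. Ratios carry exact binomial (Clopper-Pearson) 95% intervals on rounded counts, which cover counting error only. The ratio step was run on simulated Poisson counts with known scaling factors, which does not bear on the TMM factors or on read assignment. No test or adjusted p was computed, since there is a single group. Other steps ran under Python 3.11.15 with pandas 2.3.3, scipy 1.17.1, matplotlib 3.10.9 and numpy 2.4.6.

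Members and lists were chosen with earlier results of these data known. Replicate values are given for the 3 highest cyclases, phosphodiesterases and AKAPs, all PKA subunits, members past 1.5-fold, and detected members whose leading transcript is non-coding or differs between quantifications. Any other member may be named with its level or count, and of each list the 3 highest genes and those past 1.5-fold. Rapgef3, Rapgef4 and the details of Akap6, Pde4b, Pde4d and Pde6a were added after their values were seen. Promoter windows and motif shares come from RefSeq (GRCm38.p6). Protein sequences were not used here. Nothing but the labels shows that the replicates are separate animals.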

Additional observations from a re-analysis of the deposited data

How the results depend on the processing

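The counts of detected members (40; 32 to 46 over all settings run), of shared leading transcripts and of pathway genes stayed within 1.5 times their value under each setting run. The median TPM of members was 5.07 with read-based TPM, 10.9 with TPM rescaled to protein-coding nuclear genes and 3.23 over complete coding transcripts; the last setting was added after seeing the data. With read-based TPM the shares were 63.9% for Adcy6, 83.7% for Prkaca and 74.6% for Prkar1a. Over complete coding transcripts they were 48.7% for Adcy6, 19.0% for Pde1c, 89.7% for Prkaca, 80.1% for Prkar1a and 24.0% for Akap1, and with posterior mean TPM Akap1 had 16.8%. The 3 members past 1.5-fold and higher in replicate 1 became 0 with TPM and a pseudocount of 1, 6 without a count filter, 0 at 2-fold, 5 with read-based counts and 1 where the credibility intervals had to be apart as well. The 1 member higher in replicate 2 became 0 with TPM and a pseudocount of 0.1 or 1, 3 without a filter, 0 at 2-fold and 0 with separate credibility intervals. The cause of these shifts was not tested. Leaving out each replicate in turn gave a median TPM of 3.87 to 4.67 and shares of 65.4 to 66.8% for Adcy6, 15.8 to 18.2% for Pde1c, 85.3 to 85.5% for Prkaca, 77.7 to 79.3% for Prkar1a and 17.1 to 17.3% for Akap1. With it, 41 members were detected, 26 to 30 had the same leading transcript in both quantifications, 3 to 4 had a non-coding leading transcript and 78 pathway genes were detected. Of the 40 detected members, 33 moved by more than their SD with read-based TPM, 9 with posterior mean TPM and 27 over complete coding transcripts. TMM, DESeq2 and total-count scaling gave the same direction for all 48 members compared but Adcy9 and Pde12, whose log2 ratios were 0.02 and 0.01 with TMM. With read-based counts and TMM factors, Pde2a and Pde1b changed direction, with log2 ratios of 0.43 and 0.05 against -0.14 and -0.02. Depth limits genes with few counts, such as the member Pde9a and the pathway gene Pkib. No paired analysis was possible because the labels give a single group.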
